A study of Homo sapiens with 2 samples.

Results

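The genes examined here were 37 genes of the interferon response and of RNA sensing, taken by gene name from a table of 61541 human genes. They comprise the type I interferon receptor, STAT and IRF transcription factors, sensors of double-stranded RNA with their signalling partners, and interferon-stimulated genes. They were measured by RNA-seq in Huh7, an established human hepatocellular carcinoma cell line. One library came from cells transfected with a control siRNA (si-NC, called Huh7-NC) and 1 from cells transfected with siRNA against BRF2 (si-BRF2, called Huh7-si), a subunit of the initiation factor that RNA polymerase III uses at its small nuclear RNA promoters. The study made this pair of libraries to look for the genes that change when BRF2 is knocked down. Both groups are transfected cells of 1 line, no untransfected cells were analysed here, and the time after transfection and the siRNA sequence used for RNA-seq are not given in the sources used here.

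Type I interferons bind the receptor IFNAR1/IFNAR2, whose kinases JAK1 and TYK2 phosphorylate STAT factors, STAT2 among them. STAT2 and IRF9 act in the complex ISGF3, which binds the interferon-stimulated response element (ISRE) in the promoters of interferon-stimulated genes. In an infected hepatocyte the pathway is set off when RIG-I, MDA5 or TLR3 meets viral RNA and signals through adaptors to IRF3 and IRF7, which switch on the interferon genes themselves.

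Each library held 1 sample, so no difference has a replicate check. The estimated counts of Huh7-NC summed to 22852648 reads, and those of Huh7-si to 22089016. BRF2 had 1281 reads in the control and 364 after knockdown (log2 fold change -1.77, 95% interval -1.94 to -1.60), so the siRNA target was lower in the library labelled si-BRF2. All 10 hepatocyte markers examined had reads in both libraries, with a summed TPM (a level scaled for gene length and library size) of 23412 and 22717. Beyond counting error 3 of them were higher and 7 lower, with APOB (log2 fold change 1.04) past 2-fold and APOA1 (-0.83) and APOC3 (-0.59) past 1.5-fold. Of 9 leukocyte markers 7 had reads, and the summed TPM of 450 and 445 was almost all from LYZ (438 and 433), while CD3E and MS4A1 were at 0 and ITGAM was up-regulated on 24 and 59 reads. The 4 endothelial markers summed to 0.96 and 1.60 TPM with KDR at 0. The 6 fibroblast markers summed to 16.1 and 34.1 TPM with DCN at 0; COL1A1 and COL1A2 were up-regulated in Huh7-si, and the part of these markers in the members' values was not tested.

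Fold changes are ratios of CPM (a gene's reads over all reads of its library on genes, on a fixed scale), Huh7-si over Huh7-NC. The rounded reads of each gene in both libraries were set against each other by an exact binomial test, two-sided. That test compares the 2 libraries and not the conditions, and its 95% Clopper-Pearson intervals cover counting error only. A gene was called up-regulated or down-regulated when it differed by 2-fold or more with p under 0.05 before adjustment. A gene was called beyond counting error at a Benjamini-Hochberg adjusted p under 0.05 over the 26379 genes with reads, whatever its fold change. A count of 0 allows up to 3 reads, or 0.131 CPM (Huh7-NC) and 0.136 CPM (Huh7-si).

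The promoters of many of these genes carry the letters of the ISRE, which ISGF3 and IRF factors are known to bind. RefSeq windows of 300 bases (250 before to 50 after the start, GRCh38.p14) were at hand for 27 of the 37 genes. The ISRE letters, GAAANNGAAA on either strand, stood in the windows of 17 of the 27 genes (63.0%), against 4.38% of all 27305 genes with a window and 3.57% of all 35116 windows. The letters of the gamma-activated site, TTCNNNGAA, which read the same on both strands, stood in 9 of the 27 (33.3%), against 9.38% of all genes. The 2 patterns can overlap each other. The stretches shown next were chosen to show the letters next to genes that the results turn on, each given on the strand of its gene with every ISRE match in capitals. They are ISG15 (chr1:1013365-1013424, plus strand), IFITM3 (chr11:320861-320920, minus), IFI6 (chr1:27672251-27672310, minus), ISG20 (chr15:88638922-88638981, plus), OAS3 (chr12:112938437-112938496, plus), IFIT1 (chr10:89392495-89392554, plus), MX1 (chr21:41420544-41420603, plus) and IFI27 (chr14:94110616-94110675, plus).
ISG15: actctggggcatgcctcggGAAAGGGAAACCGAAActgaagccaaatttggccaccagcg
IFITM3: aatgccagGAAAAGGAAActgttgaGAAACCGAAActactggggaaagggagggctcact
IFI6: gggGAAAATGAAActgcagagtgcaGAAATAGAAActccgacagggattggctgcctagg
ISG20: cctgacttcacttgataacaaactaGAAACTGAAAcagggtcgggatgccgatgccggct
OAS3: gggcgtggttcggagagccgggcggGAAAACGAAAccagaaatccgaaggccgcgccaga
IFIT1: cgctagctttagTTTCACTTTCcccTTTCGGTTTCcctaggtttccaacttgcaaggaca
MX1: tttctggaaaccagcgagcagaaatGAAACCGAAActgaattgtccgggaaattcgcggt
IFI27: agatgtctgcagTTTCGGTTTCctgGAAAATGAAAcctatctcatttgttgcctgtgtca
In ISG15 the matches run into each other. In IFIT1 both matches read on the opposite strand, and in IFI27 1 match reads on each strand.

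The genes of the transcription factors IRF9 and IRF1 hold no ISRE letters in their windows but 1 gamma-activated site pattern each (in capitals), shown here because the IRF9 gene was among those with more reads in Huh7-si. The IRF9 stretch lies at chr14:24161177-24161235 (plus strand) and the IRF1 stretch at chr5:132490864-132490922 (minus strand).
IRF9: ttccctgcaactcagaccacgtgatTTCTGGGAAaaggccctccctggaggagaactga
IRF1: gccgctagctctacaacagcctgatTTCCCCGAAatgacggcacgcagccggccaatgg
These matches are descriptions of letters and were not tested as binding sites.

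Of the 37 genes, 35 had reads in at least 1 library, and IFI44 and XAF1 had 0 reads in both. With at least 10 reads over both libraries there were 31 genes, and with at least 100 reads 21 genes. By TPM, 16 genes stood at 10 or more in both libraries, 14 stayed under 1 in both, and the other 7 lay between. Only IFITM3 and IRF3 reached 100 TPM in both libraries. Most reads came from 4 long or abundant genes, ADAR, MX2, MAVS and IRF3, whose share of the members' summed reads was 62.1% in the control and 64.4% after knockdown. The summed TPM of the 37 genes was 751 in the control and 775 after knockdown. In all pairs of values that follow, Huh7-NC comes first and Huh7-si second, unless a sentence says otherwise.

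**Figure D1:**
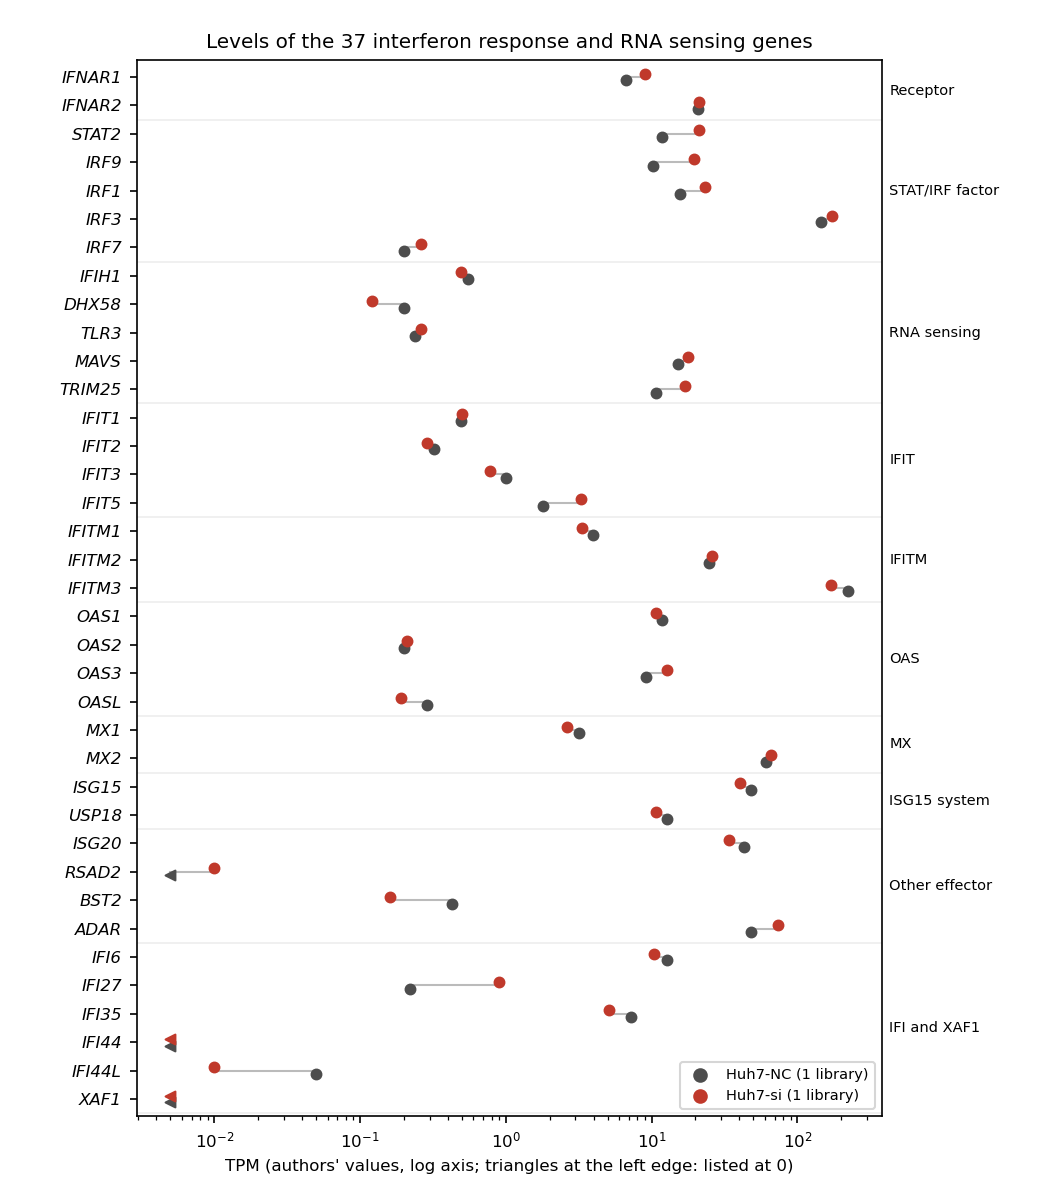
The TPM value of each of the 37 genes (horizontal log axis) in Huh7-NC (grey) and Huh7-si (red), 1 library each, with the genes grouped by role. The points of a gene lie close together beside the spread between genes, with IFITM3 at 223 and 171 TPM at the right and IFI44 and XAF1, listed at 0, at the left edge.

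One of the 37 genes was called up-regulated at 2-fold, where 10.4% of all genes tested were, and 0 were called down-regulated, where 1.02% of all genes were. The called gene, IFI27, rested on 3 and 11 reads. At a fold change of at least 1.5 the counts were 3 higher genes (IFI27, STAT2 and IRF9; 17.6% of all genes) and 1 lower gene (IFI35; 2.87% of all genes). Beyond counting error at any fold, 6 of the 35 genes tested were higher (17.1%, against 26.8% of all genes) and 8 were lower (22.9%, against 12.6% of all genes). Of the 26379 genes tested, 17921 had at least 10 reads over both libraries, and genes with fewer can rarely be called. Of 11563 genes with at least 10 reads and a promoter window without ISRE letters, 39.5% were higher and 21.7% lower. For 464 such genes with the letters the shares were 42.2% and 15.3%. The higher members were those of the receptor and of ISGF3 subunits (IFNAR1, IFNAR2, STAT2 and IRF9) together with OAS3 and ADAR. The lower members were effector genes or a regulator of the response (IFITM2, IFITM3, OAS1, MX2, ISG15, USP18, ISG20 and IFI35). TMM scaling moved all log2 fold changes by -0.22. On that scale 3 members were higher (STAT2, IRF9 and ADAR) and 14 lower, and over all genes the shares were 17.1% higher and 20.6% lower. Higher genes thus made up 42.9% of the members beyond counting error with total reads and 17.6% with TMM scaling, against 68.1% and 45.5% over all genes.

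Among the 31 members with at least 10 reads, 11 had a log2 fold change above 0 and 20 below it. Their median was -0.17, beside 0.21 over the 17921 genes with at least 10 reads. Among the 21 members with at least 100 reads the median was -0.09 (10 above 0 and 11 below), beside 0.14 over 12978 genes.

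**Figure D2:**
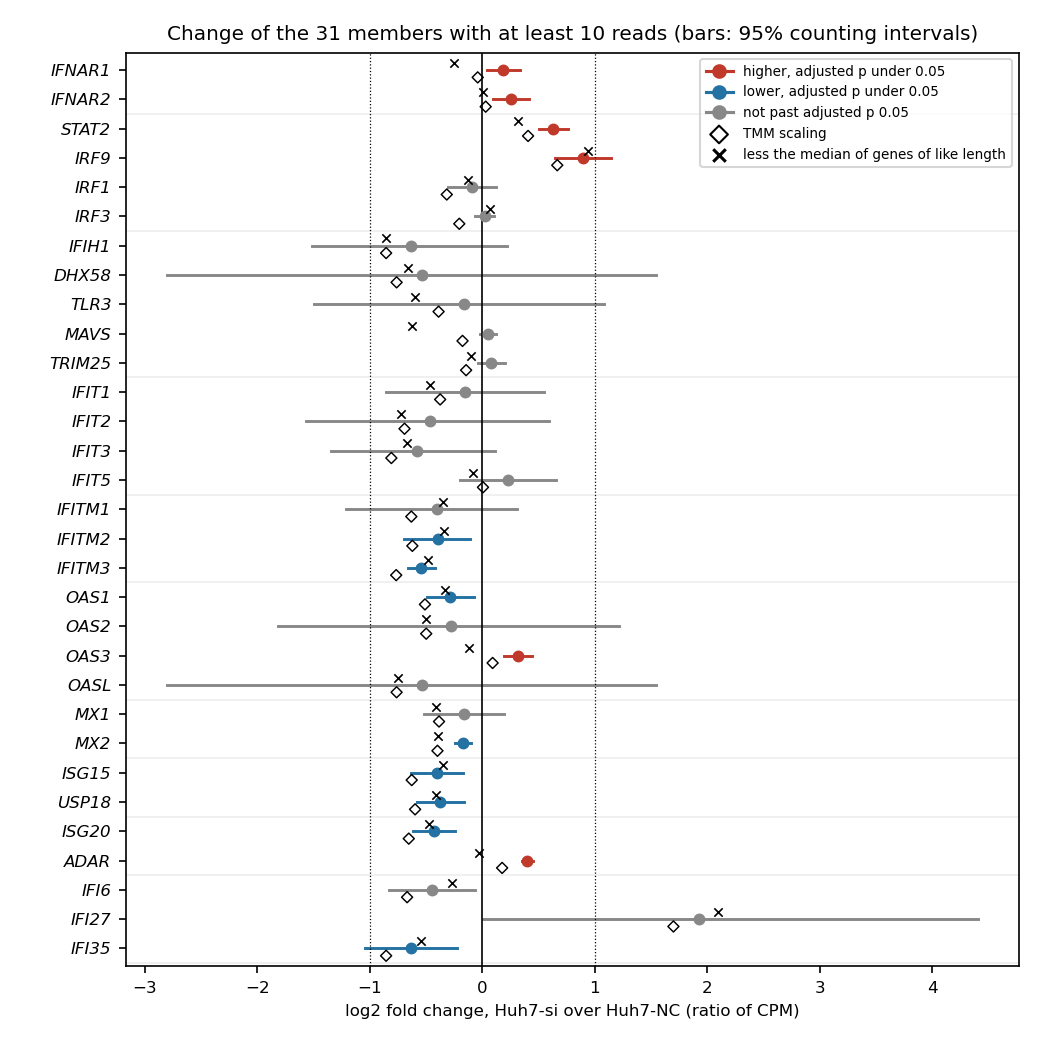
The log2 fold change (Huh7-si over Huh7-NC, ratio of CPM) of the 31 members with at least 10 reads, with 95% counting intervals, coloured by whether the adjusted exact p was under 0.05 and in which direction. Open diamonds give the value with TMM scaling, crosses the value after subtracting the median of similarly long genes, and dotted lines mark 2-fold. By each measure shown here, STAT2 and IRF9 stay right of 0, and IFITM2, IFITM3, ISG15, USP18, ISG20 and IFI35 stay left of it. The signs of IFNAR1, IRF3, MAVS, TRIM25, IFIT5, OAS3 and ADAR depend on the measure.

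The receptor genes were considered first. IFNAR1 (ENSG00000142166), the receptor chain that carries TYK2, lies on chromosome 21 of GRCh38 from 33324477 to 33359862 (GENCODE 29). It had 730 and 802 reads (6.65 and 8.95 TPM). The log2 fold change was 0.18 (0.04 to 0.33, adjusted p = 0.033 from the exact test), and it was -0.04 with TMM scaling, and -0.25 when set against genes of like length. IFNAR2 (ENSG00000159110; chromosome 21, 33229901 to 33265675), the chain that binds interferon with the higher affinity and carries JAK1, had 597 and 688 reads (log2 fold change 0.26, 0.10 to 0.42). The IFNAR2 value was 0.03 with TMM scaling and 0.004 when set against genes of like length. By TPM, IFNAR2 was nearly level, at 20.95 and 21.24. A same-strand read-through gene, AP000295.1, covers all of IFNAR2 and had 240 and 318 reads, and the reads of both summed gave 0.32 (0.18 to 0.45). Transcripts of both receptor chains were therefore present in both libraries, and their reads differed by far less than 2-fold.

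STAT2 and IRF9, subunits of ISGF3, had the largest higher values among the well measured members. STAT2 (ENSG00000170581; chromosome 12, 56341597 to 56360155) had 798 reads in the control and 1196 after knockdown, or 11.8 and 21.1 TPM. The log2 fold change was 0.63 (0.50 to 0.76, adjusted p = 4.0e-21 from the exact test), 0.41 with TMM scaling, and 0.32 when set against genes of like length. IRF9 (ENSG00000213928; chromosome 14, 24161053 to 24166565) had 209 and 375 reads, or 10.2 and 19.5 TPM. For IRF9 the log2 fold change was 0.89 (0.64 to 1.14, adjusted p = 2.3e-12 from the exact test), 0.67 with TMM scaling, and 0.94 when set against genes of like length. IRF9 thus stood further above genes of its length than on the plain scale, since genes of that length had a median of -0.05.

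All 5513 bases of IRF9 lie within a same-strand read-through gene, AL136295.5, which had 252 and 365 reads, so the split of reads between them is uncertain. The reads of both summed were 461 and 740 (log2 fold change 0.73, 0.56 to 0.90).

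Of the other IRF factors among the members, IRF1, IRF3 and IRF7 were not beyond counting error with total reads, while with TMM scaling IRF3 (-0.20, adjusted p = 2.1e-05) and IRF1 (-0.31, adjusted p = 0.011) were lower by the exact test. IRF3, the constitutive factor that switches on the interferon-beta gene, was abundant, with 2136 and 2095 reads or 144 and 172 TPM. The log2 fold change of IRF3 was 0.02 (-0.07 to 0.11), and 734 of its bases overlap BCL2L12 on the opposite strand, whose reads went from 1723 to 1261. IRF1, a factor induced by interferon-gamma, had 380 and 345 reads (log2 fold change -0.09, -0.30 to 0.12). An opposite-strand gene, AC116366.3, shares 9190 bases with IRF1 and had 269.5 and 253.5 reads. The strandedness of the libraries is not given in the sources used here, so reads of AC116366.3 and IRF1 may not have been told apart. The TPM columns gave the opposite sign for IRF1, 15.7 and 23.2, a log2 ratio of 0.56. IRF7, the factor that amplifies the response once interferon is made, had 3 reads in each library. IRF3 was therefore the only IRF factor of the set in high supply, and IRF7 was at the limit of detection.

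Of the genes grouped here under RNA sensing, which leave out the OAS genes, MAVS and TRIM25 were well expressed and IFIH1, TLR3 and DHX58 were not. MAVS, the mitochondrial adaptor through which RIG-I and MDA5 signal, had 3155 and 3157 reads, or 15.3 and 17.8 TPM. Its log2 fold change was 0.05 (-0.02 to 0.12), and since genes of its length (11731 bases) had a median of 0.67, it lay 0.62 below them. TRIM25, a ubiquitin ligase that acts on RIG-I signalling, had 1183 and 1210 reads (log2 fold change 0.08, -0.04 to 0.20) and 10.7 and 16.8 TPM. Neither MAVS nor TRIM25 differed beyond counting error when scaled by total reads, and both were lower with TMM scaling (-0.17 and -0.14).

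Reads of IFIH1, TLR3 and DHX58 were scarce. IFIH1, which encodes MDA5, the sensor of long double-stranded RNA, had 32 and 20 reads (0.55 and 0.49 TPM). The log2 fold change of IFIH1 was -0.63 with an interval of -1.51 to 0.22. TLR3, the endosomal sensor of double-stranded RNA, had 12.7 and 11 reads (0.24 and 0.26 TPM), and DHX58, which encodes LGP2, a regulator of MDA5 and RIG-I, had 6 and 4 reads. RIG-I itself (DDX58) had 124 and 123 reads, or 1.5 and 1.71 TPM, and PKR (EIF2AK2), the kinase that shuts down translation on binding double-stranded RNA, had 550 and 559 reads, or 3.10 and 3.71 TPM. At these depths a difference of 2-fold was not detectable for TLR3 or DHX58, whose intervals span it in both directions. For DDX58 and EIF2AK2 the log2 fold changes were 0.04 and 0.07, and -0.34 and -0.60 when set against genes of like length.

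The IFIT genes encode proteins that bind viral RNA ends and are among the genes most strongly induced by interferon. All of them were low here. IFIT1 had 39 and 34 reads (0.49 and 0.50 TPM), IFIT2 20 and 14 reads (0.32 and 0.29 TPM), and IFIT3 44 and 28.4 reads (1 and 0.78 TPM). IFIT5 had 89 and 101 reads (1.80 and 3.29 TPM). With total reads none was beyond counting error, with log2 fold changes from -0.58 for IFIT3 (-1.34 to 0.11) to 0.23 for IFIT5 (-0.19 to 0.66). With TMM scaling IFIT3 was lower (-0.81, adjusted p = 0.048 from the exact test). IFIT1, IFIT2 and IFIT3 lie on chromosome 10 within the span of LIPA, which is on the opposite strand and had 690 and 680 reads. The strandedness of the libraries is not given in the sources used here, so reads of LIPA and of these IFIT genes may not have been told apart.

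The IFITM genes encode small membrane proteins that block the entry of enveloped viruses. By reads, IFITM3 and IFITM2 were lower in Huh7-si beyond counting error and IFITM1 was not. IFITM3 (ENSG00000142089; chromosome 11, 319669 to 327537), the most abundant gene of the set by TPM in Huh7-NC, had 1448 reads in the control library and 963 in the knockdown library, or 223 and 171 TPM. Its log2 fold change was -0.54 (-0.66 to -0.42, adjusted p = 1.3e-18 from the exact test), and -0.48 relative to genes of like length. IFITM2 had 232 and 170 reads (log2 fold change -0.40, -0.69 to -0.11, adjusted p = 0.017 from the exact test). Its TPM values went the other way, 24.6 and 26.1. IFITM1, with 37.6 and 27.4 reads, gave -0.41 (-1.21 to 0.31) and was not beyond counting error. IFITM1 and IFITM2 overlap over 1767 bases on the same strand and the IFITM genes are close copies of each other, so their separate counts are uncertain. The reads of the 3 genes summed were 1717 and 1160.

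The OAS genes encode enzymes that make 2-5A, a second messenger, when they meet double-stranded RNA. OAS1, of 1718 bases, had 427 and 339 reads (11.8 and 10.8 TPM) and was lower, with a log2 fold change of -0.28 (-0.49 to -0.07, adjusted p = 0.019 from the exact test). OAS3, of 6517 bases, had 910 and 1096 reads (9.10 and 12.8 TPM) and was higher, with a log2 fold change of 0.32 (0.19 to 0.45, adjusted p = 4.7e-06 from the exact test). Relative to genes of like length, OAS3 lay at -0.12 and OAS1 at -0.33, so both were then below 0. OAS2 had 10 and 8 reads and OASL, a relative without enzyme activity, 6 and 4 reads.

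MX2 and MX1 encode dynamin-like GTPases that act against viruses. MX2 (ENSG00000183486; chromosome 21, 41361943 to 41409390) was one of the most abundant members, with 3538 reads in the control and 3034 after knockdown. On the log2 scale the fold change of MX2 was -0.17 (-0.24 to -0.10, adjusted p = 6.2e-06 from the exact test), -0.40 on each of the TMM and the like-length scales, but 0.12 by TPM (60.5 and 66.0). MX1 had 148 and 128 reads (3.18 and 2.63 TPM), with a log2 fold change of -0.16 (-0.51 to 0.19). Of this pair MX2 held more than 10 times the TPM of MX1 in both libraries, and the difference between libraries was small for each.

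ISG15 is a ubiquitin-like protein that is joined to other proteins during the response, and USP18 removes it and restrains the receptor. Both genes were lower in Huh7-si. ISG15 (ENSG00000187608; chromosome 1, 1001138 to 1014540) had 369 and 270 reads, or 48.4 and 40.5 TPM, a log2 fold change of -0.40 (-0.63 to -0.17, adjusted p = 0.0017 from the exact test). USP18 (ENSG00000184979; chromosome 22, 18149899 to 18177397) had 437 and 327 reads, or 12.7 and 10.8 TPM, a log2 fold change of -0.37 (-0.58 to -0.16, adjusted p = 0.0015 from the exact test). The enzymes that attach ISG15, named here after their values were seen, were UBE2L6 with 1538 and 1002 reads (log2 fold change -0.57), UBA7 with 22 and 14 reads and HERC5 with 41 and 35 reads. UBE2L6 alone of these was beyond counting error (adjusted p = 1.2e-21 from the exact test).

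Of the other effector genes, ISG20, which encodes an RNA exonuclease, was lower and ADAR, which encodes the enzyme that turns adenosine into inosine in double-stranded RNA, was higher. ISG20 had 565 and 406 reads (43.0 and 33.9 TPM), a log2 fold change of -0.43 (-0.62 to -0.24, adjusted p = 2.2e-05 from the exact test). ADAR (ENSG00000160710; chromosome 1, 154582057 to 154628013) had the most reads of all members, 5949 against 7596, or 48.5 and 74.2 TPM. Its log2 fold change was 0.40 (0.35 to 0.45, adjusted p = 4.5e-57 from the exact test), yet -0.03 relative to genes of like length (6610 bases), so that ADAR moved as genes of that length did. RSAD2, which encodes viperin, had 0 reads in the control and 1 after knockdown, and BST2, which encodes tetherin, had 6 and 2 reads. Both are strongly induced by interferon, and both stood near the limit of detection in both libraries.

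The IFI genes were named for their induction by interferon. IFI6 had 142 and 101 reads (12.7 and 10.4 TPM), a log2 fold change of -0.44 (-0.83 to -0.06), with an adjusted p = 0.052 from the exact test. IFI35 had 136 and 85 reads (7.23 and 5.09 TPM), a log2 fold change of -0.63 (-1.04 to -0.23, adjusted p = 0.0049 from the exact test). IFI27 had 3 reads in the control and 11 after knockdown, a 3.79-fold ratio with an interval of 1.002 to 21.2. The exact p of IFI27 was 0.032 before adjustment and 0.077 after it, so the single member past the 2-fold rule was not beyond counting error. IFI44L had 1 read in each library, and IFI44 and XAF1 had none.

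Change varied with gene length across the whole table, and the members followed that pattern. Among the 21 members with at least 100 reads, Spearman's rho between gene length and log2 fold change was 0.72, and among all 12978 genes with at least 100 reads it was 0.50. The points share the same 2 libraries and genes are not independent replicates. Of the 10 such members of up to 2000 bases, 8 were below 0 (median -0.40), and of the 11 longer ones 8 were above 0 (median 0.18). When the median of genes of like length was taken off, these medians became -0.34 and -0.12, beside -0.07 over all genes with at least 100 reads. Of the 31 members with at least 10 reads, 26 then lay below 0, which was the median over all genes with at least 10 reads. The 5 above 0 were IFNAR2 (0.004), STAT2 (0.32), IRF9 (0.94), IRF3 (0.067) and IFI27 (2.10). The part of gene length in the differences of single genes was not tested.

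**Figure D3:**
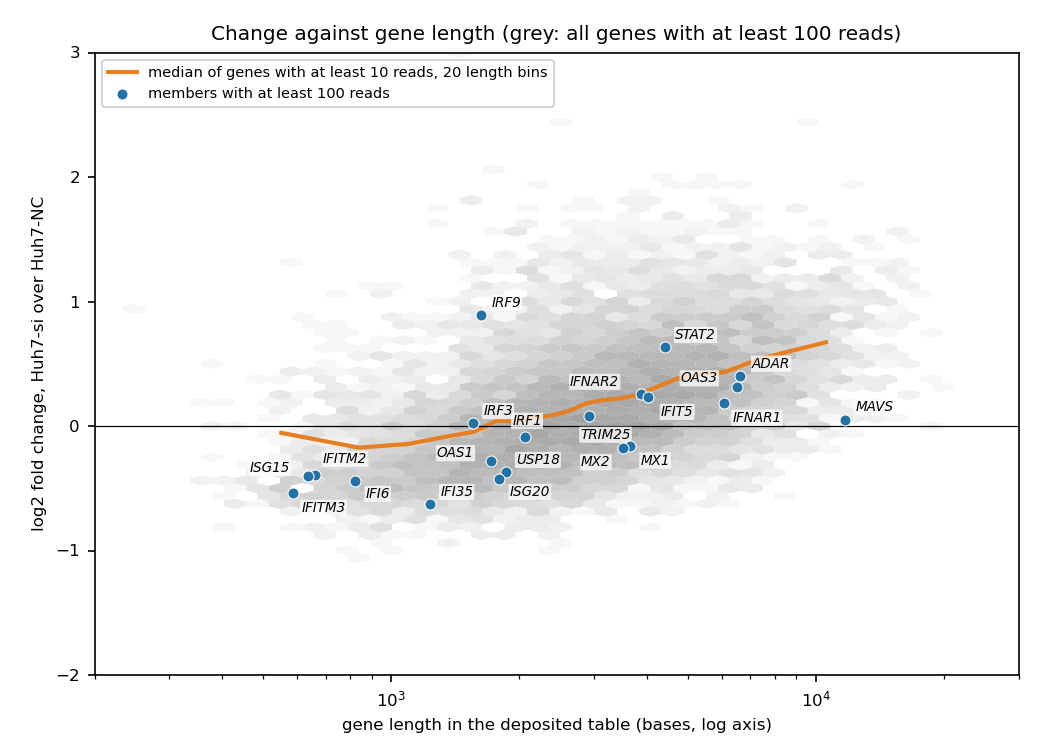
Gene length in bases (log axis) against log2 fold change (Huh7-si over Huh7-NC). Grey marks the density of all genes with at least 100 reads, the line the median of genes in 20 length bins and the points the 21 members with at least 100 reads. Most members lie under the line, while IRF9 (0.89) and STAT2 (0.63) lie above it and MAVS lies 0.62 below it.

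The members were also compared by whether their windows hold the ISRE letters. This split was made after the values were seen. Of the members with a promoter window and at least 10 reads, the 13 with ISRE letters had a median log2 fold change of -0.40 (3 above 0 and 10 below), and the 9 without them had 0.08 (6 above 0 and 3 below). Relative to genes of like length these medians were -0.41 and -0.13. Beyond counting error 1 of the 13 was higher and 3 were lower (7.69% and 23.1%), and of the 9, 4 were higher and 2 lower (44.4% and 22.2%). Among the 13, IFI27, IFIH1, IFIT1, IFIT3, IFITM1 and TLR3 had under 100 reads over both libraries, so the median rests partly on small counts. Over all genes with at least 10 reads the same split gave 0.22 for 464 genes with the letters and 0.16 for 11563 genes without them. Beyond counting error, 42.2% of those with the letters were higher and 15.3% lower, against 39.5% and 21.7% of those without. Outside the members and pathway lists the medians were 0.25 for 424 genes with the letters and 0.16 for 11502 without. The part of the ISRE letters in the members' values was not tested.

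The rest of the pathway was read from lists of 136 further genes, of which 108 had reads and 98 had at least 10. Of these 136 genes, 2 were called up-regulated and 1 down-regulated at 2-fold, where 10.4% and 1.02% of all genes were. Beyond counting error 27 were higher and 19 lower, or 25% and 17.6% of the 108 with reads, against 26.8% and 12.6% of all genes. Here and for each list below, the base of all genes includes those with few reads. Of the 11563 genes with at least 10 reads and a window without ISRE letters, 39.5% were higher and 21.7% lower. The median log2 fold change of the pathway genes was 0.03, and -0.14 relative to genes of like length. All 22 interferon genes of the lists, IFNB1 among them, had 0 reads in both libraries. No interferon transcript was therefore detected at this depth, which allows up to 3 reads for each gene and library.

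Of the 16 genes of receptor signalling, 7 were higher beyond counting error and 0 were lower, against 26.8% and 12.6% of all genes with total reads. All 16 had at least 100 reads, so the 39.5% and 21.7% are the closer base for this list. The median of the 16 was 0.16, under the 0.21 over all genes, and -0.09 relative to genes of like length. The kinases of the receptor were among the 7 higher genes. JAK1 went from 2125 to 2897 reads (log2 fold change 0.50) and TYK2 from 2875 to 3725 reads (0.42), or 0.08 and 0.17 relative to genes of like length. SOCS3, an inhibitor of JAK signalling, was called up-regulated, with 35 and 72 reads (log2 fold change 1.09), which falls under 2-fold with TMM scaling.

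Of the 28 sensors and adaptors, 5 had 0 reads in both libraries. Among the 23 with reads, 6 were higher and 1 was lower beyond counting error (26.8% and 12.6% of all genes), and the median was 0.07. The lower gene was IRF2, a repressor of interferon genes, with 371 and 216 reads (log2 fold change -0.73). Of 48 other interferon-stimulated genes 47 had reads. Among these 47, 8 were higher and 11 lower beyond counting error (26.8% and 12.6% of all genes), with a median of -0.01. APOL1 was the one called down-regulated, with 46 and 22.1 reads (log2 fold change -1.01). Past 1.5-fold, DDX60L, HELZ2, TRIM21 and SLFN11 were higher (log2 fold changes 0.80, 0.76, 0.73 and 0.76) and LY6E was lower (-0.70). IRF2 and these 5 genes fall outside the rule for named genes and were chosen after their values were seen.

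Of the 9 antigen presentation genes, 0 were higher and 3 lower beyond counting error, against 26.8% and 12.6% of all genes (median -0.05). PSMB10, an immunoproteasome subunit, was among the lower genes, with 471 and 240 reads (log2 fold change -0.92), and was named after its value was seen. Of the 13 genes that process or limit double-stranded RNA and other nucleic acids, 6 were higher and 4 lower beyond counting error (median -0.06). Over all genes the shares were 26.8% higher and 12.6% lower. TREX1, a DNA exonuclease that holds back the sensing of cytosolic DNA, was called up-regulated on few reads, 1.66 and 18.1, a log2 fold change of 3.50. DICER1, which cuts double-stranded RNA and was named after its value was seen, had 355 and 547 reads (0.67), equal to the median of genes of its length.

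**Figure D4:**
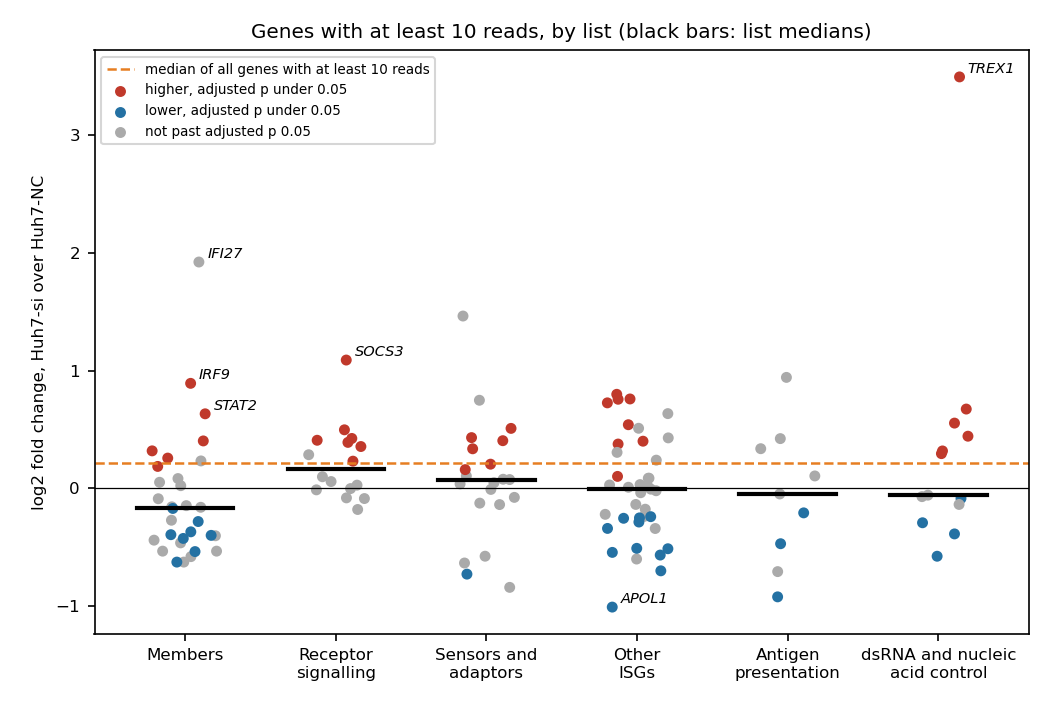
The log2 fold change (Huh7-si over Huh7-NC) of each gene with at least 10 reads, for the members and the 5 pathway lists with reads, coloured by whether the adjusted exact p was under 0.05. Black bars are list medians and the dashed line is the median of all genes with at least 10 reads, 0.21. Each list median lies below that line, with the members lowest at -0.17 and receptor signalling nearest to it at 0.16.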

How the data were processed

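RNA was extracted from Huh7 cells after transfection with control or BRF2 siRNA, and standard Illumina libraries were sequenced, 1 per condition. The submitters' processing notes name Bowtie2 2.0.6, TopHat2 2.0.12 and GRCh37; the counting tool, annotation and strandedness are not given in the sources used here. For each library the authors deposited a TPM value and an estimated count for every gene; the counts are unscaled, and 44.6% of the genes with reads have a fractional one. The deposited table also holds the authors' own comparison (fold, log2 fold, p and adjusted p), which was not used.

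The members and the gene lists were chosen with earlier results of these data known. Members were found by gene name. Fold changes were ratios of CPM from the estimated counts, which were rounded to whole numbers for the two-sided exact binomial test and its Clopper-Pearson intervals, with Benjamini-Hochberg adjustment over the genes with reads. The depth of 22852648 and 22089016 reads sets the precision through these intervals, which cover counting error only. The thresholds of 2-fold and p under 0.05 are those the study states. The genes named were all members, BRF2, the pathway genes past that rule with at least 10 reads, and JAK1, TYK2, DDX58, EIF2AK2 and IFNB1; 1 further gene of this rule is not reported here, and others are marked as chosen after their values were seen. Genes of like length are the 1 of 20 length bins that holds the gene. Other scalings tried were TMM (edgeR), upper quartile, median of ratios (DESeq2) and the total less the 100 top genes. Further alternatives were the adjusted p, the exact test of edgeR at a biological coefficient of variation set to 0.1 or 0.4, filters, pseudocounts, a fold of 1.5 and the TPM columns. Sums with overlapping genes were added after seeing the data. The scripts were tested on simulated data.

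Positions come from GENCODE 29 (GRCh38), which holds 94.8% of the table's identifiers and all 37 members; the table itself gives no coordinates. Promoter sequences are from RefSeq (GRCh38.p14), with 27 members matched and 10 without a window. Motifs were searched as exact letters on both strands. Python 3.11.15, NumPy 2.4.6, pandas 2.3.3, SciPy 1.17.1, matplotlib 3.10.9, R 4.3.3, edgeR 4.0.16 and DESeq2 1.42.0 were used.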

Additional observations from a re-analysis of the deposited data

How the results depend on the processing

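The single member called up-regulated was lost (0) with TMM, median-of-ratios or upper-quartile scaling, Benjamini-Hochberg adjustment, the exact test of edgeR with a biological coefficient of variation set to 0.1 or 0.4, at least 10 reads in each library, at least 1 CPM in either library or a pseudocount of 1 CPM. A fold threshold of 1.5 gave 3 higher members and 1 lower. The pathway genes called up-regulated, 2 with total reads, numbered 1 with TMM, median-of-ratios or upper-quartile scaling, a coefficient of 0.4, 10 reads in each library or 1 CPM in either, 0 with a pseudocount of 1 CPM and 7 at 1.5-fold. Those down-regulated, 1 with total reads, numbered 2 with the 3 scalings, 0 with a coefficient of 0.4 or the pseudocount, and 4 at 1.5-fold. The 6 members higher beyond counting error numbered 3 with TMM, median-of-ratios or upper-quartile scaling, 2 at a coefficient of 0.1 and 0 at 0.4. The 8 lower members numbered 14 with TMM scaling, 12 with median-of-ratios or upper-quartile scaling and 0 at either coefficient. IFI27 has too few reads for either filter and is then not tested, and an assumed coefficient adds spread by construction; otherwise the cause was not tested.

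BRF2 stayed past 2-fold, from -1.99 to -1.59. The median of the members changed sign by TPM, to 0.029. Of the 31 members tried, 18 kept their sign throughout. By TPM the sign changed for IRF1 (0.56), TLR3 (0.12), IFIT1 (0.029), IFITM2 (0.081), OAS2 (0.070) and MX2 (0.12). With TMM, median-of-ratios and upper-quartile scaling it changed for IFNAR1 (-0.040, -0.022 and -0.0017), IRF3 (-0.20, -0.19 and -0.17), MAVS (-0.17, -0.16 and -0.14) and TRIM25 (-0.14, -0.13 and -0.10), and for IRF3 without the 100 top genes (-0.0068). Relative to genes of like length it changed for IFNAR1 (-0.25), MAVS (-0.62), TRIM25 (-0.10), IFIT5 (-0.084), OAS3 (-0.12) and ADAR (-0.032). The log2 TPM ratio exceeded the log2 ratio of CPM by a median of 0.18 over all genes with at least 100 reads (5th to 95th percentile -0.15 to 0.51), and by 0.65 for IRF1, 0.57 for TRIM25 and 0.64 for IFIT5; the cause was not tested. With 1 library per condition no replicate could be left out. With total reads 0 members under 100 reads were beyond counting error, and with TMM scaling IFIT3 was (-0.81). Changes of less than 2-fold are poorly resolved for members with so few reads. The planned identity of the IFITM and IFIT proteins was not run. No paired analysis was possible because each condition has 1 library.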
